A study of Mus musculus with 12 samples.

Results

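The genes of glutathione synthesis and recycling were examined in mouse liver after acetaminophen (APAP) overdose. They were the 10 rows of the deposited gene table whose symbol is Gclc, Gclm, Gss, Gsr, Slc7a11, Cth, Cbs, Chac1, Glrx or Oplah, out of 45777 genes, and all 10 were found. RNA-seq had been done on whole livers of 12 C57BL/6 mice aged 10 to 12 weeks, 3 in each of 4 groups that cross the genotype label, wild-type (WT) or Gna12-/- (here "labelled KO"), with the treatment, vehicle or APAP. Per the study's methods the mice were males fasted overnight, the WT mice were age-matched littermates, APAP was a single intraperitoneal dose of 300 mg/kg, and livers were taken 6 h later. The Gna12 deletion is in the whole animal, not in 1 cell type. No label ties the libraries to a litter, day or batch, and nothing given here says more of the animals, so the p-values measure the spread between these livers.

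Glutathione is a tripeptide of glutamate, cysteine and glycine and the main low-molecular-weight thiol of the hepatocyte. The liver conjugates NAPQI, the reactive metabolite that cytochrome P450 enzymes make from APAP, to glutathione, so an overdose depletes it. Its synthesis runs in 2 steps, the glutamate-cysteine ligase reaction (GCLC with its modifier GCLM) and the synthetase reaction (GSS), with cysteine taken up as cystine or made from methionine by transsulfuration, and oxidised glutathione is returned to the reduced form by glutathione reductase with NADPH.

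The libraries held 49737950 to 69566079 counts. The Gna12 transcript was not lower under the KO label: it stood at 66.7, 34.8 and 63.4 CPM (each gene's share of the library's counts, scaled by TMM) in WT vehicle livers and at 67.2, 66.7 and 54.7 in vehicle livers labelled KO, and after APAP at 23.3, 58.8 and 50.5 in WT against 43.3, 48.1 and 46.6. The groups overlapped at both treatments. The deleted segment is not given in the sources used here, so what a gene-level count should show under the KO label is not known. The study checked genotype by PCR of tail DNA and by qRT-PCR of liver, neither of which is analysed here, and genotype is given below as a label. WT APAP replicate 1 stood apart, with a summed erythroid marker level of 28806 TPM (the authors' level per transcript length) against 657 to 1560 in the other 11 livers, and a summed neutrophil marker level of 236 TPM against 0.853 to 53.0. The 6 hepatocyte markers summed to 53815 to 93059 TPM and none was at 0. The 7 pericentral hepatocyte markers summed to 7290 to 10042 TPM in the 6 vehicle livers and to 2212 to 4437 (WT) and 3898 to 6194 (labelled KO) after APAP, without overlap between treatments. In whole liver, fewer cells of a type and less RNA per cell cannot be told apart, and the part that this shift in markers has in the results below was not tested.

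RefSeq promoter windows of GRCm38.p6, 300 bases each, were at hand for 6 of the 10 genes (Slc7a11, Chac1, Gclm, Gss, Glrx and Cbs). Gclc, Gsr, Cth and Oplah had none. The windows were searched on both strands for TGACNNNGC, the core of the antioxidant response element bound by NRF2 with small MAF proteins, for TGATGNAA, the core of the C/EBP-ATF element bound by ATF4 and its partners, and for the AP-1 site TGAGTCA. The 3 windows shown belong to genes that were higher after APAP and hold a match to one of the first-named pair of motifs, with the match in capitals.
Slc7a11, chr3:50443564-50443863, minus strand: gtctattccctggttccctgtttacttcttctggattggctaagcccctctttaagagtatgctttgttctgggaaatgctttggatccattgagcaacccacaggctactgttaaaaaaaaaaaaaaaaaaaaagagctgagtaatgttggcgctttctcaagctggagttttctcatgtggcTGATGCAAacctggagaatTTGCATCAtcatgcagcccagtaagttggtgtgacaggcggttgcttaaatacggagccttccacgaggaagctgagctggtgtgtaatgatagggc
Chac1, chr2:119350992-119351291, plus strand: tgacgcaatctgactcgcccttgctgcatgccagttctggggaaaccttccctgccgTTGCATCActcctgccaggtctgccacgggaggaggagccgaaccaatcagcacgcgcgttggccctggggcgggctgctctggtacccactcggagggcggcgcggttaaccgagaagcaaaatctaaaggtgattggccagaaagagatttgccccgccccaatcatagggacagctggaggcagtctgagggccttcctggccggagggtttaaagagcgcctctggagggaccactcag
Gclm, chr3:122245307-122245606, plus strand: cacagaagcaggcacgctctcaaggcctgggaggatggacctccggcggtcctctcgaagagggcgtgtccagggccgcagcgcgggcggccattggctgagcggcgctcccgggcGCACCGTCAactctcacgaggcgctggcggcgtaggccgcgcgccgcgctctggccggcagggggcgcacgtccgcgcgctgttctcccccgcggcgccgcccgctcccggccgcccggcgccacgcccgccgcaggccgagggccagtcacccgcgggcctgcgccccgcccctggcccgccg

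Slc7a11 held the C/EBP-ATF core on both strands, as TGATGCAA starting at position -66 and as TTGCATCA at position -47 from the transcript start. Chac1 held it once, on the opposite strand at position -193. Of all 32851 RefSeq windows of this length 3.97% held that core. Gclm held the antioxidant core on the opposite strand, as GCACCGTCA at position -134, and 12.4% of all windows held that core. Glrx held an AP-1 match on the opposite strand, at position -98 or -99 in its pair of windows, which 5.20% of all windows held. The Gss and Cbs windows held none of the 3. No match overlapped another motif. These are matches of letters and not evidence of binding. The Slc7a11 window lies inside the annotated extent of the gene (chromosome 3, 50364936 to 50499087), at the transcript start that the table uses.

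Most of these genes were higher after APAP and none passed as lower. With an adjusted p under 0.05 (edgeR's quasi-likelihood test, Benjamini-Hochberg adjustment over all genes tested, here and below), 7 of 10 were higher over all 12 livers with the genotype label as a covariate: Gclc, Gclm, Gss, Gsr, Slc7a11, Cbs and Chac1. Of 16509 genes tested there, 14.0% were higher and 11.4% lower. In WT livers 3 were higher (Gclc, Gsr and Slc7a11), where 1.62% of 15693 genes were higher and 0.427% lower. In livers labelled KO 6 were higher (Gclc, Gclm, Gss, Gsr, Slc7a11 and Chac1), where 13.0% of 15665 genes were higher and 9.60% lower. The median log2 fold change of the 10 was 0.57 in WT livers, 0.53 in livers labelled KO and 0.52 over all 12, against 0.03, -0.02 and 0.01 over all genes tested. Slc7a11 passed the filter on low counts only through the APAP livers, so its calls are no support. Without it 2, 5 and 6 of 9 were higher in WT, under the KO label and over all 12, with medians of 0.50, 0.46 and 0.43. The comparison over all 12 livers uses the same libraries as the comparisons within a label and adds no independent livers.

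**Figure D1:**
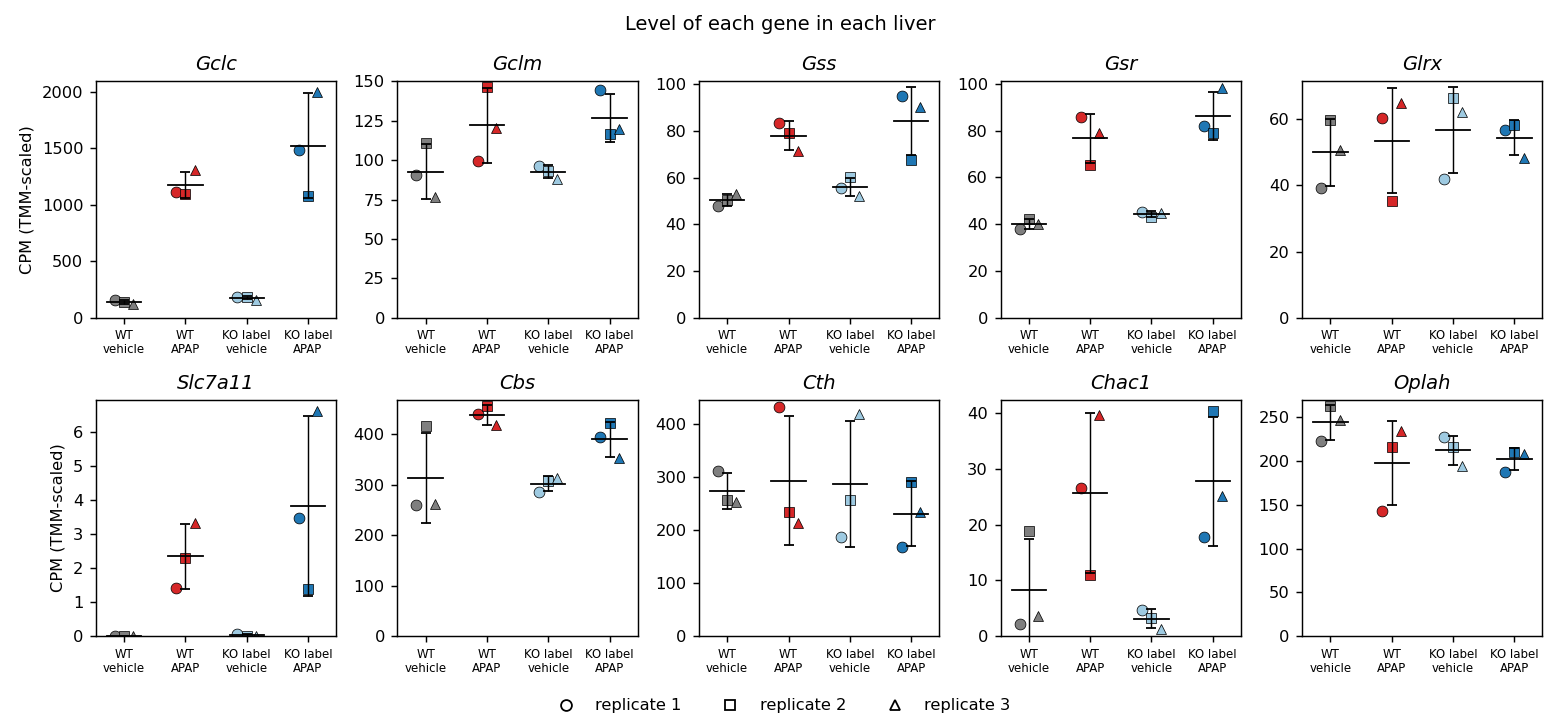
Level of each of the 10 genes in each of the 12 livers, in TMM-scaled CPM on a linear axis from 0. Points are livers, marked by replicate, the horizontal line is the group mean and the bar its SD (n = 3). Gclc, Gss, Gsr and Slc7a11 have no vehicle liver as high as any APAP liver, while Cth, Glrx and Oplah overlap. The share of all genes without overlap was not counted, so nothing is drawn from these separations, here or in the text. Slc7a11 passed the filter on low counts only through the APAP livers.

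Gclc encodes the catalytic subunit of glutamate-cysteine ligase, the rate-limiting enzyme of glutathione synthesis (Entrez Gene 14629, chromosome 9, 77754535 to 77794489, GRCm38). It stood at 157, 142 and 119 CPM in WT vehicle livers and at 1109, 1098 and 1304 CPM in WT APAP livers. In livers labelled KO it stood at 183, 187 and 160 CPM with vehicle and at 1486, 1074 and 1999 CPM after APAP. Every APAP liver was above every vehicle liver. Its log2 fold change was 3.08 (SE 0.22, adjusted p = 0.00248) in WT and 3.11 (SE 0.24, adjusted p = 0.000235) in livers labelled KO, and 3.09 over all 12 livers (95% interval 2.75 to 3.43, adjusted p = 1.45e-07), which is an 8.52-fold increase. Gclc passed the test in each fit that left out 1 liver, with log2 fold changes of 2.96 to 3.17 in WT and 2.88 to 3.31 under the KO label.

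Gclm encodes the modifier subunit, which lowers the ligase's need for glutamate and its inhibition by glutathione (Entrez Gene 14630, chromosome 3, 122245487 to 122267215). Its levels were 90.6, 111 and 76.6 CPM in WT vehicle livers and 99.4, 147 and 120 CPM in WT APAP livers. With the KO label they were 96.5, 93.3 and 88.1 CPM with vehicle and 144, 117 and 120 CPM after APAP. The WT groups overlapped, since WT APAP replicate 1 was below WT vehicle replicate 2, and the groups labelled KO did not. APAP over vehicle was 0.41 on the log2 scale in WT (SE 0.21, adjusted p = 0.366), 0.46 in livers labelled KO (SE 0.13, adjusted p = 0.0351) and 0.43 over all 12 (SE 0.12, adjusted p = 0.0198). The call under the KO label was lost without any 1 liver but APAP replicate 2, at adjusted p 0.0677, 0.107 and 0.0958 without vehicle replicates 1, 2 and 3 and 0.109 and 0.0631 without APAP replicates 1 and 3. The call over all 12 was lost without WT vehicle replicate 3 (adjusted p = 0.0509). Gm6061, which overlaps Gclm on the genome, had 283 to 853 counts where Gclm had 3833 to 10915, and the use of strand in counting is not given in the sources used here.

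The subunits of the ligase therefore moved by unequal amounts. Within a liver, the ratio of Gclc to Gclm on the TPM scale was 1.04, 0.771 and 0.932 in WT vehicle livers and 6.65, 4.47 and 6.48 in WT APAP livers. Under the KO label it was 1.14, 1.20 and 1.08 with vehicle and 6.13, 5.50 and 9.93 after APAP. The lowest APAP ratio was above the highest vehicle ratio under both labels, and the ratio was 6.23-fold higher after APAP. In an exact two-sided permutation test of treatment within genotype label (400 arrangements, n = 6 against 6) p was 0.005, the smallest the design can give, and 0.015 after Benjamini-Hochberg adjustment over the 3 ratios tested. These ratios were chosen after the values had been seen, with the separation of Gclc by treatment already known. The adjustment covers only the chosen ratios. The p therefore describes these livers only and is no support for the difference.

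**Figure D2:**
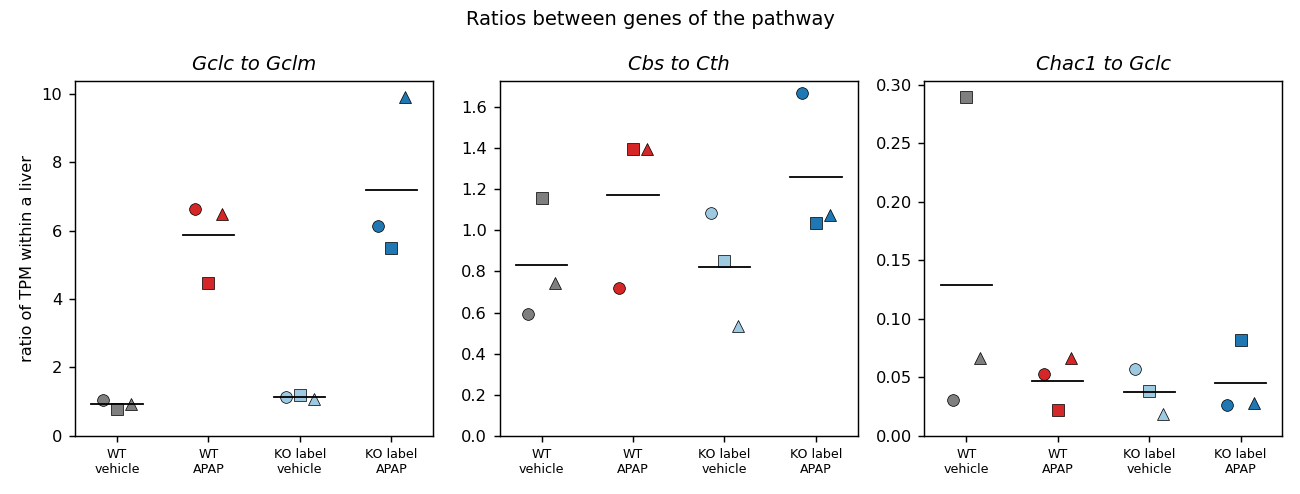
Ratios of TPM between genes of the pathway within each liver, on linear axes from 0, with the group mean as a line (n = 3). The Gclc to Gclm ratio is 0.771 to 1.20 in the 6 vehicle livers and 4.47 to 9.93 in the 6 APAP livers, and both other ratios overlap between treatments.

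Gss encodes glutathione synthetase, which adds glycine to the dipeptide that the ligase makes (Entrez Gene 14854, chromosome 2, 155563181 to 155592810). It stood at 47.7, 50.4 and 52.8 CPM in WT vehicle livers and at 83.3, 79.2 and 71.3 CPM in WT APAP livers. Under the KO label it stood at 55.4, 60.1 and 52.2 CPM with vehicle and at 95.0, 67.6 and 90.1 CPM after APAP. No vehicle liver of either label was as high as any APAP liver. Over all 12 livers the log2 fold change was 0.61 (SE 0.10, adjusted p = 0.000807), or 1.53-fold. Within the labels it was 0.65 in WT, which did not pass (SE 0.15, adjusted p = 0.0832), and 0.60 under the KO label, which did (SE 0.15, adjusted p = 0.0242). The last call was lost without vehicle replicates 1, 2 and 3 (adjusted p 0.0643, 0.0630 and 0.0788) and without APAP replicates 1 and 3 (0.0766 and 0.0761), and limma on log2(TPM + 1) gave an adjusted p of 0.0506. The overlapping gene Gssos2 had 45 to 158 counts where Gss had 2360 to 6272.

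Slc7a11 encodes xCT, the subunit of the cystine-glutamate exchanger that carries the transport (Entrez Gene 26570). It had 0 counts in all 3 WT vehicle livers and 73, 170 and 210 counts in the WT APAP livers. In livers labelled KO it had 4, 0 and 0 counts with vehicle and 200, 87 and 461 counts after APAP. The transcript was thus near the limit of detection with vehicle and present in each APAP liver. In WT the mean after APAP, per library total, was 39.4 times the 0.0582 CPM that a floor of 3 counts per library allows. With the KO label, 748 counts against 4 gave a ratio of rates of 168 (exact 95% interval 65.2 to 617, which covers counting error only). All 4 of those vehicle counts were in replicate 1, and without that library the mean after APAP was 70.2 times a floor of 3 counts per library. Even after APAP its level per transcript length was low, with means of 0.400 TPM in WT and 0.786 TPM in livers labelled KO. Its partner Slc3a2, the heavy chain that brings xCT to the cell surface, had means of 29.3 CPM (SD 4.39) in WT vehicle and 84.8 CPM (SD 23.1) in WT APAP livers, and of 27.9 CPM (SD 2.65) and 74.8 CPM (SD 7.16) under the KO label, with a log2 fold change of 1.48 over all 12 (SE 0.14, adjusted p = 1.82e-05).

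Of the enzymes that make cysteine from homocysteine, Cbs passed the test over all 12 livers and Cth did not. Cbs, cystathionine beta-synthase and the entry to transsulfuration (Entrez Gene 12411, chromosome 17, 31612623 to 31637233), stood at 259, 415 and 263 CPM in WT vehicle livers and at 439, 456 and 418 CPM in WT APAP livers. With the KO label it stood at 285, 307 and 313 CPM and, after APAP, at 394, 422 and 353 CPM. The groups did not overlap within either label, although WT vehicle replicate 2 lay above APAP replicates 1 and 3 of the KO label. Its log2 fold change was 0.43 over all 12 livers (SE 0.13, adjusted p = 0.0257), and neither label passed alone (0.50, adjusted p = 0.324 in WT, and 0.38, adjusted p = 0.0710 in livers labelled KO). The call over all 12 was lost without WT vehicle replicate 1 or 3 (adjusted p 0.0616 and 0.0645), KO vehicle replicate 1 (0.0554) or KO APAP replicate 2 (0.0556).

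Cth, cystathionine gamma-lyase and the step that releases cysteine (Entrez Gene 107869), varied more between livers of a group than between groups. It was 313, 256 and 253 CPM in WT vehicle livers and 434, 234 and 213 CPM in WT APAP livers. With the KO label it was 187, 258 and 419 CPM with vehicle and 168, 290 and 235 CPM after APAP. Over all 12 livers its log2 fold change was -0.10 with a 95% interval of -0.61 to 0.41 (adjusted p = 0.789), so a change of either sign within that interval was not resolved. The WT value was 0.12 with all livers and -0.30 without WT APAP replicate 1, the liver with high erythroid and neutrophil markers and the highest Cth. The Cbs to Cth ratio was 1.48-fold higher after APAP, which did not pass the exact permutation test (p = 0.065, adjusted over 3 ratios 0.0975). Before adjustment, its permutation p was 0.03 without WT APAP replicate 1 and 0.04 without KO vehicle replicate 1. The ratio was chosen after the values had been seen, so these p-values are no support.

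Gsr encodes glutathione reductase, which returns oxidised glutathione to the reduced form (Entrez Gene 14782, chromosome 8, 33653238 to 33698162). It stood at 38.0, 42.1 and 40.1 CPM in WT vehicle livers and at 85.6, 65.3 and 79.1 CPM in WT APAP livers. Under the KO label it stood at 45.3, 42.9 and 44.7 CPM with vehicle and at 81.9, 78.9 and 98.2 CPM after APAP. All APAP livers were above all vehicle livers. The log2 fold change was 0.95 over all 12 livers (SE 0.09, adjusted p = 2.81e-05), a 1.94-fold increase, and 0.97 under the KO label (SE 0.12, adjusted p = 0.00201). In WT it was 0.95 (SE 0.17, adjusted p = 0.0409), but adjusted p rose to 0.188, 0.0763 and 0.173 without WT vehicle replicates 1, 2 and 3 and to 0.0541 and 0.150 without WT APAP replicates 1 and 3.

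Glrx, glutaredoxin, which uses glutathione to reduce mixed disulfides on proteins (Entrez Gene 93692), showed no change that these livers resolve. It stood at 39.3, 59.8 and 50.8 CPM in WT vehicle livers against 60.3, 35.4 and 65.0 CPM after APAP, and at 42.1, 66.4 and 62.1 CPM in vehicle livers labelled KO against 56.8, 58.4 and 48.3 CPM after APAP. The groups overlapped under both labels. Its log2 fold change over all 12 livers was 0.02 with a 95% interval of -0.34 to 0.39 (adjusted p = 0.933).

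Chac1 encodes a gamma-glutamylcyclotransferase that breaks down cytosolic glutathione and is a known target of ATF4 (Entrez Gene 69065, chromosome 2, 119351242 to 119354326). In livers labelled KO it stood at 4.74, 3.25 and 1.33 CPM with vehicle and at 17.8, 40.3 and 25.1 CPM after APAP. In WT livers it stood at 2.22, 18.9 and 3.64 CPM with vehicle and at 26.5, 10.9 and 39.6 CPM after APAP. The groups labelled KO did not overlap and the WT groups did, because WT vehicle replicate 2 lay above WT APAP replicate 2. On the log2 scale the fold change was 3.16 under the KO label (SE 0.46, adjusted p = 0.00330), 1.66 in WT (SE 0.81, adjusted p = 0.335) and 2.39 over all 12 (SE 0.57, adjusted p = 0.00863). Without WT vehicle replicate 2 the WT value was 3.14 (adjusted p = 0.0613) and the value over all 12 was 3.15. That same vehicle liver also had the most Atf4 of the 6 vehicle livers, 142 CPM against 52.3 to 68.8. Other regulators went both ways there. Ddit3 was highest, at 9.62 CPM against 5.63 to 7.14, and Trib3 was lowest, at 3.57 CPM against 6.75 to 16.7. Its neutrophil marker sum was 40.6 TPM against 0.853 to 3.39. The part of any of these in its Chac1 level was not tested. The difference between the labels in the APAP effect on Chac1 was -1.50 on the log2 scale (WT minus KO label) with a 95% interval of -3.76 to 0.75 (adjusted p = 0.877), so the labels were not shown to differ.

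Oplah encodes 5-oxoprolinase, which returns 5-oxoproline, the product of the cyclotransferases, to glutamate (Entrez Gene 75475, chromosome 15, 76296603 to 76331181). It stood at 223, 263 and 247 CPM in WT vehicle livers against 143, 215 and 234 CPM after APAP, and at 227, 216 and 194 CPM in vehicle livers labelled KO against 187, 210 and 208 CPM after APAP. The groups overlapped, and the lowest level was in WT APAP replicate 1. The log2 fold change over all 12 was -0.19 with a 95% interval of -0.46 to 0.08 (adjusted p = 0.305). Exosc4, which overlaps Oplah on the genome, had 516 to 1159 counts against 7320 to 16034.

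**Figure D3:**
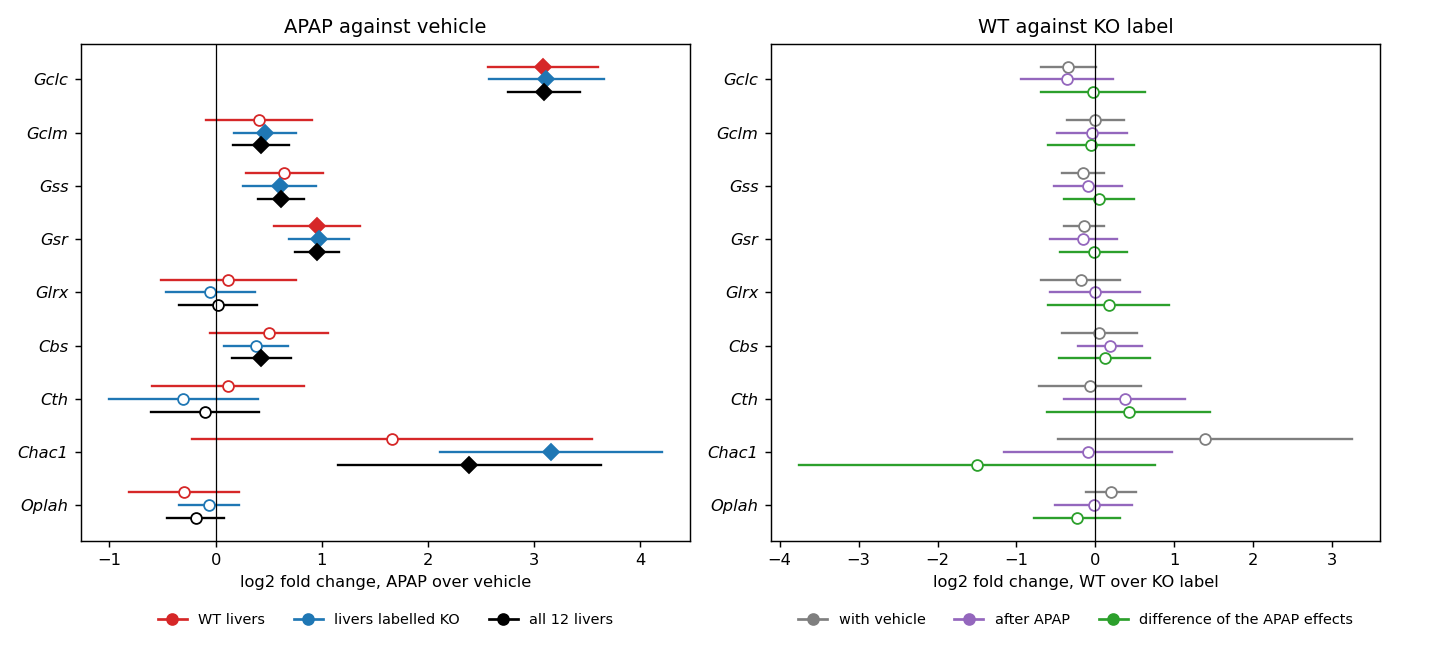
Log2 fold changes of 9 of the genes with 95% intervals, for APAP over vehicle (left) and for WT over KO label (right). Filled diamonds passed an adjusted p of 0.05 and open circles did not. Slc7a11 is left out because its fitted fold change rests on groups at or near 0 counts. On the left Gclc sits at 3.08 to 3.11 in all 3 fits, and on the right no gene passed.

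On the scale of the authors' TPM, which allows levels to be compared between genes, APAP changed the order of the pathway. With vehicle, Cth (means of 241 TPM in WT and 251 TPM under the KO label) and Cbs (192 and 197 TPM) were above the other 8 genes, overlapping with each other but not with Oplah below them. Gclc was at 63.9 TPM in WT vehicle livers, where its range overlapped that of Gclm (70.2 TPM) and of Glrx (58.3 TPM). Under the KO label it was at 85.3 TPM with vehicle, where it overlapped Oplah, Gclm and Glrx. After APAP Gclc had the highest mean of the 10, at 512 TPM (SD 162) in WT and 839 TPM (SD 256) under the KO label. It was clear of Cbs in livers labelled KO (577 to 1088 against 263 to 310 TPM) but not in WT, where WT APAP replicate 1 had 326 TPM of Gclc and the highest Cbs was 334 TPM. By group means Gsr, Chac1 and Slc7a11 were the lowest 3, in that order, in all 4 groups. Their ranges were clear of the genes above with vehicle, but after APAP Gsr overlapped Glrx under both labels, and Chac1 in WT.

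**Figure D4:**
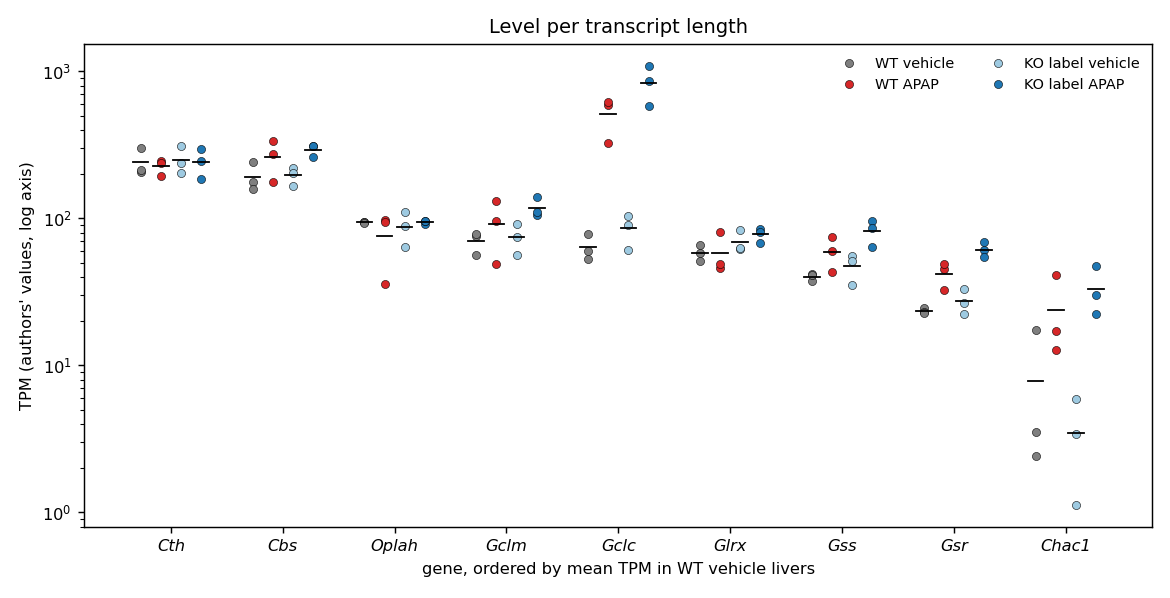
TPM of 9 of the genes in each liver on a log axis, ordered by the WT vehicle mean, with group means as lines. Slc7a11, which holds zeros, is left out. Gclc moves from among Gclm and Glrx with vehicle to the highest mean after APAP, and WT APAP replicate 1 is the low red point for Gclc, Gclm, Cbs and Oplah.

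WT APAP replicate 1 sat lower on this scale than in CPM: Gclm there was 49.1 TPM, below all 3 WT vehicle livers (56.5 to 78.4 TPM), but 99.4 CPM, within their range. Values within a liver, such as the ratio of Gclc to Gclm, do not depend on that scaling.

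The genotype label was not shown to change any of these genes. After APAP, 0 of the 10 passed in WT against the KO label, where 0.0309% of 16174 genes passed in either direction, and with vehicle 0 of the 9 tested did, where 0.0262% of 15262 passed (Slc7a11 was too low to test). For the difference of the APAP effects 0 of 10 passed, where 0% of 16509 passed. At an unadjusted p under 0.05 edgeR also gave 0 of these genes in each of the 3 comparisons, against 536, 1154 and 848 of all genes. The DESeq2 Wald test gave 0 of these genes after adjustment, where few of all genes passed. Those were 21 higher and 8 lower after APAP, 62 and 75 with vehicle, and 7 and 2 for the difference of the APAP effects. The intervals remain wide for some: after APAP Gclc was -0.36 (WT over KO label, log2) with an interval of -0.94 to 0.23, and Slc7a11 -0.69 with -1.93 to 0.56. With vehicle Gclc was lower in all 3 WT livers (119 to 157 CPM) than in any liver labelled KO (160 to 187 CPM), a log2 difference of -0.34 (SE 0.15, unadjusted p = 0.0517, adjusted p = 0.654). Gsr was likewise without overlap with vehicle, at -0.14 (SE 0.11, adjusted p = 0.783). How many of all genes were without overlap was not counted, so nothing is drawn from either separation. The APAP effect on Gclc differed between the labels by -0.03, with an interval of -0.69 to 0.63.

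Genes next to the pathway passed in both directions. Over all 12 livers, 1 of 9 other gamma-glutamyl cycle genes was higher (Ggct) and 4 lower (Ggt6, Anpep, Chac2 and Lap3), with a median log2 fold change of -0.05 against 0.01 over all genes, of which 14.0% were higher and 11.4% lower. The count of 1 higher is at the background share. Ggct, the general gamma-glutamylcyclotransferase, rose by 0.92 (SE 0.20, adjusted p = 0.00448) from means of 2.00 and 2.46 CPM with vehicle in WT and KO label to 4.03 and 4.32 CPM. Ggt6, of the gamma-glutamyltransferase family, fell by 1.10 (SE 0.23, adjusted p = 0.00377), and Anpep, an aminopeptidase of the cell surface, fell by 0.54 (SE 0.10, adjusted p = 0.00241). None of these 5 passed in WT livers alone, where 1.62% of all genes were higher and 0.427% lower, and all 5 did under the KO label, where 13.0% were higher and 9.60% lower. Chac2, the other cytosolic glutathione-degrading enzyme, fell by 0.92 (SE 0.21, adjusted p = 0.00755) where Chac1 rose; it was named after its values were seen.

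In the supply and use of methionine and cysteine, 4 of 15 genes were higher (Slc3a2, Slc1a4, Mat2a and Cdo1) and 4 lower (Ahcy, Suox, Sqor and Mpst), with a median of -0.13, where 14.0% of all genes were higher and 11.4% lower. Mat2a, a methionine adenosyltransferase, rose by 0.89 (SE 0.11, adjusted p = 0.000188), with group means of 61.4 CPM (WT) and 70.6 CPM (KO label) with vehicle and 115 and 129 CPM after APAP. Slc1a4, a neutral amino acid transporter, rose by 1.48 (SE 0.30, adjusted p = 0.00309). In WT alone 1 of the 15 was higher, Slc3a2, against 1.62% of all genes, and under the KO label 3 were, against 13.0%.

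Among thiol reductases and NADPH-supplying enzymes, 4 of 12 were higher (Pgd, Txnrd1, G6pdx and Me1) and 2 lower (Nnt and Txnrd2, both mitochondrial), with a median of -0.00, against 14.0% higher and 11.4% lower of all genes. Pgd and G6pdx are the NADPH-making dehydrogenases of the pentose phosphate pathway, which feeds GSR. Pgd stood at 13.0, 15.1 and 16.2 CPM in WT vehicle livers against 40.9, 57.6 and 62.1 CPM after APAP, and at 18.4, 16.5 and 13.6 CPM against 65.6, 57.5 and 74.8 CPM under the KO label. Its log2 fold change was 1.95 (SE 0.13, adjusted p = 1.03e-06), and that of G6pdx was 1.44 (SE 0.23, adjusted p = 0.000669). Txnrd1, the cytosolic thioredoxin reductase, rose by 1.89 (SE 0.20, adjusted p = 5.54e-05), and it and Pgd also passed in WT alone, where 1.62% of all genes were higher.

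Of 8 glutathione transporters, 2 were higher (Abcc1 and Abcc4) and 2 lower (Slc25a11 and Slc25a10), with a median of -0.04. Over all genes 14.0% were higher and 11.4% lower, so these counts are near the background. Slc25a11 and Slc25a10, mitochondrial dicarboxylate carriers proposed to bring glutathione into mitochondria, fell by 0.70 (SE 0.10, adjusted p = 0.000394) and by 0.55 (SE 0.13, adjusted p = 0.00938). Slc25a39, the mitochondrial glutathione importer, and its relative Slc25a40 did not pass, at 0.01 (95% interval -0.21 to 0.24, adjusted p = 0.939) and -0.16 (-0.57 to 0.26, adjusted p = 0.590). Abcc1, which exports glutathione conjugates, rose by 0.97 (SE 0.31, adjusted p = 0.0334) from vehicle means of 1.19 and 1.43 CPM.

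Of 11 regulators of these genes, 8 were higher (Ddit3, Maff, Mafk, Trib3, Atf4, Bach1, Atf5 and Nfe2l2) and 1 lower (Mafg), with a median of 0.99, against 14.0% higher and 11.4% lower of all genes. Ddit3, the CHOP factor of the stress response that ATF4 drives, stood at 5.76 to 9.62 CPM in WT vehicle livers and 219 to 300 CPM after APAP, and at 5.63 to 7.14 and 110 to 236 CPM under the KO label, a log2 fold change of 4.94 (SE 0.23, adjusted p = 8.42e-08). Maff and Mafk, small MAF proteins that pair with NRF2 and BACH1, rose by 3.81 (SE 0.29, adjusted p = 3.29e-06) and 1.98 (SE 0.12, adjusted p = 6.08e-07), while Mafg of the same family fell by 0.49 (adjusted p = 0.0271). Nfe2l2, which encodes NRF2, was 39.2 to 43.5 CPM in WT vehicle livers and 57.1 to 73.0 CPM after APAP, and 43.6 to 47.1 and 57.0 to 65.5 CPM under the KO label, a log2 fold change of 0.55 over all 12 (SE 0.09, adjusted p = 0.000991). In WT 3 of the 11 were higher (Ddit3, Maff and Mafk) and under the KO label 8 were, against 1.62% and 13.0% of all genes. No gene of the 5 lists passed in either genotype comparison or in the difference of the APAP effects. Of 7 pericentral markers, 7 were lower over all 12 livers (median -1.52), where 11.4% of all genes were lower. In WT alone 2 were lower, against 0.427% of all genes, and under the KO label 7 were, against 9.60%. Of 7 periportal markers 3 were lower over all 12 livers (median -0.38). There 0 of 6 hepatocyte, 0 of 7 Kupffer cell and 0 of 5 erythroid markers passed. Higher there were 1 of 6 neutrophil, 2 of 5 cholangiocyte and 1 of 4 sinusoidal endothelial markers, against 14.0% of all genes.

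**Figure D5:**
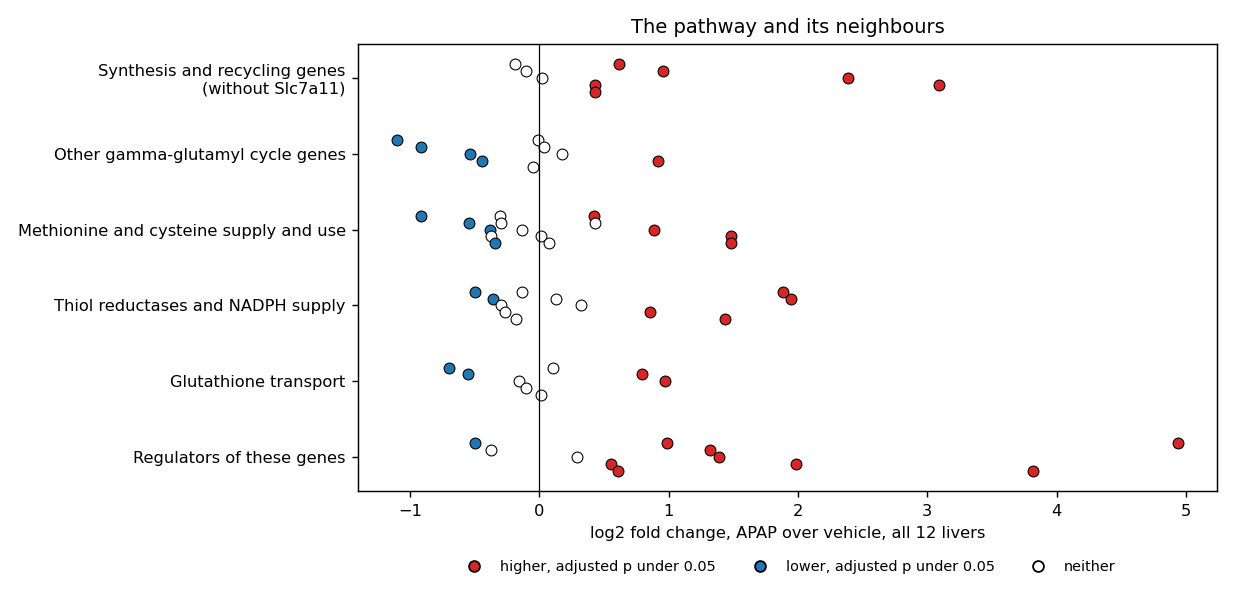
Log2 fold change after APAP over all 12 livers for each gene tested of the pathway and of 5 neighbouring lists. Each point is a gene, red where higher and blue where lower at an adjusted p under 0.05, and open otherwise. The pathway row has no blue point, and each other row has at least 1.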

How the data were processed

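Poly(A)-selected, stranded libraries from 12 livers (4 groups of 3) were sequenced by the authors, and the deposited table gives, per gene and library, raw read counts, FPKM and TPM. Per the labels, reads were checked with FastQC 0.11.7, trimmed with Trimmomatic 0.38, aligned to mm10/GRCm38 with HISAT2 2.1.0 and Bowtie2 2.3.4.1, and assembled and quantified with StringTie 2.1.3b. The deposited counts were tested; the authors' TPM, scaled per transcript length and library, gave levels between genes; the authors' FPKM were not used. Each column was assigned by its library's label, with 0 left unassigned. Of the gene identifiers 45679 were in RefSeq's table (GRCm38.p6).

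Each comparison was fitted in edgeR 4.0.16 (R 4.3.3) on its own libraries with TMM scaling, filterByExpr, glmQLFit and glmQLFTest. P-values were adjusted by Benjamini-Hochberg over all genes tested, at 0.05, and SEs were taken as the log2 fold change over the square root of F. CPM shown are TMM-scaled over all 12 libraries. Alternatives were DESeq2 1.42.0 (size factors, Wald test), no filter, at least 10 counts in every library, all 12 livers in one fit, a replicate block, limma 3.58.1 on quantile-normalised log2(TPM + 1) or log2(TPM + 0.1), and leaving out each library; the fit without WT APAP replicate 1 was singled out after seeing the data. The fits were tested on simulated data.

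The members and lists were chosen with earlier results of these data known, so counts over them describe these livers. The members were all named. From each neighbouring list at most 3 genes with the smallest p among those passing over all 12 livers were named with full values, and others were named after their values were seen. Intervals and floors on counts cover counting error only.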

Additional observations from a re-analysis of the deposited data

How the results depend on the processing

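The 3 members that passed in WT livers became 1 with a replicate block and 1 to 3 when each liver was left out (1 without WT APAP replicate 3, 2 without WT APAP replicate 1). With other alternatives they were 2 to 4. The 6 under the KO label became 4 with the replicate block and 4 to 7 over all alternatives, and the 7 over all 12 livers became 5 to 7. Calls over all genes moved too. Under the KO label they ran from 1261 higher and 734 lower (without KO vehicle replicate 2) to 2328 and 1997 (DESeq2 Wald test). With the replicate block they were 1596 and 1165. Over all 12 livers they ran, by total, from 1921 and 1304 (without KO APAP replicate 3) to 2670 and 2303 (DESeq2 Wald test). Without WT APAP replicate 1 they were 2683 and 2128. Livers with the same replicate number did not deviate together. Correlations of deviations ran from -0.25 to -0.02 between the WT groups and from -0.03 to 0.04 between those labelled KO. Between the labels they ran from -0.36 to 0.01 after APAP and from -0.08 to 0.02 with vehicle. The numbers were therefore not used as pairs, but with 3 livers per group such correlations cannot exclude a shared litter or day. In WT, Gsr had an adjusted p of 0.175 with the replicate block and 0.0553 by limma on log2(TPM + 0.1). Slc7a11 in WT passed in 5 of 7 alternatives that kept all livers, with 0.132 by limma on log2(TPM + 1). Without WT APAP replicate 3 its adjusted p was 0.0552. Under the KO label Gclm ran up to 0.109 and Gss up to 0.0727 over these alternatives. Gclm over all 12 livers was 0.0515 by limma on log2(TPM + 0.1). Gss in WT passed by DESeq2 (0.00769) and in the fit of all 12 livers (0.0205), as did Cbs under the KO label by DESeq2 (0.0231) and by limma on log2(TPM + 1) (0.0274). Gclc passed in every fit of APAP against vehicle that was run.

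The log2 ratio of Cbs to Cth (APAP minus vehicle) was 0.56 and ran from 0.42 to 0.72 as each liver was left out. Without WT APAP replicate 1 or KO vehicle replicate 1 its permutation p was under 0.05 before adjustment over the 3 ratios. That is no support, since the ratio was chosen after the values had been seen. That of Gclc to Gclm ran from 2.51 to 2.73 and that of Chac1 to Gclc from -0.76 to 0.05. Of single-gene fold changes, 825 kept direction and call, 33 lost and 4 gained a call, and 60 that passed in neither fit changed sign; no called value reversed. The genotype comparisons gave 0 members under every alternative. The most of all genes that passed in them was 62 higher and 75 lower, by the DESeq2 Wald test with vehicle. In WT the number of all genes passing ran from 41 higher and 0 lower (without WT vehicle replicate 3) to 968 and 555 (all 12 livers in one fit), with 61 and 1 under the replicate block, against 255 and 67. A minimum of 10 counts in every library removes Slc7a11 wherever vehicle livers are compared. The cause of these changes was not tested. With 3 livers per group, the intervals above set what could be resolved.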
